A study of Mus musculus with 32 samples.

Results

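Embryoid bodies (EBs, floating aggregates of differentiating stem cells) were grown with bisphenol S (BPS) or with its solvent dimethyl sulfoxide (DMSO), and their RNA was compared on the same days. The comparison takes 8 of the 32 libraries of the study: 4 with 100 nM BPS and 4 with DMSO, 1 of each at EB days 6, 9, 12 and 20, chosen by treatment and day alone. All came from J1 mouse embryonic stem cells, a line from strain 129S4/SvJae that carries no transgene named in the labels, and the EBs differentiated without added retinoic acid ("global" EBs). The study gave 100 nM bisphenol A (BPA) or bisphenol F (BPF) to parallel cultures at every stage. It also sampled stem cells at day 0, EBs at day 4, and a neural branch of retinoic acid-treated EBs at day 8 and neural progenitor cultures at day 10. No treatment was repeated within a day, so days stood in for replicates and the libraries of 1 day were paired. The labels do not say that the libraries came from separate cultures, so a p-value here reflects only how these libraries vary, which may be technical. In the paired fit that spread is how the difference between the treatments varies from day to day. A difference that changes with stage therefore counts as spread, and the smallest p favour genes that differ by similar amounts on all days. Every comparison of a bisphenol with DMSO rests on the same DMSO libraries, so how far those 4 libraries are typical of DMSO cultures cannot be told apart from an effect of the compounds.

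Bisphenols are phenol rings joined by a bridge, which is a carbon with methyl groups in BPA, a methylene group in BPF and a sulfonyl group in BPS. They are known as ligands of oestrogen and oestrogen-related receptors. In EBs left without a directing signal, cells spread into derivatives of all germ layers: mesoderm gives beating cardiac muscle, vessels, blood and connective tissue, and ectoderm gives neural and epidermal cells. Such bulk RNA holds all these cells together, so fewer cells of a type and less RNA per cell cannot be told apart.

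The 8 libraries held between 9574833 and 10811466 estimated reads assigned to genes, and 16485 to 17839 genes were listed in each. Levels below are deposited FPKM (fragments scaled by transcript length and library size), in the order of days 6, 9, 12 and 20, and in pairs joined by "against" the DMSO value or series comes first. Differences of 1 day are log2 differences between 2 libraries in CPM (counts scaled to library size), without a test. A log2 change over the 4 days is the edgeR estimate ± SE from the paired fit to the 8 libraries. The EB label matched the markers: Pou5f1, of pluripotent cells, went from 89.02 FPKM at day 6 to 24.35 at day 20 in DMSO and from 104.74 to 17.52 in BPS. Tubb3, of neurons, reached 548.25 and 491.57 FPKM at day 20, and the astrocyte filament gene Gfap 327.64 and 328.31. The epidermal keratin gene Krt5 stayed at or below 0.76 FPKM in all 8 libraries.

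Cardiac muscle, endothelial and connective tissue genes were mostly higher with BPS, chiefly from day 9 on, while a part of the neural progenitor and neuronal genes was lower. None of 13913 genes passed an adjusted p of 0.05 in the paired fit to 8 libraries (edgeR quasi-likelihood test, 3 residual degrees of freedom, smallest adjusted p = 0.0536). At an unadjusted p under 0.05, 1249 genes were higher (8.98% of those tested) and 1300 lower (9.34%). DESeq2 on the same libraries and genes called 384 higher (2.76%) and 271 lower (1.95%). A fit to all 16 global EB libraries, with the BPA and BPF libraries added, called 1176 of 14872 genes higher (7.91%) and 1014 lower (6.82%). Its spread comes in part from how the bisphenols varied around each other. It lost most of its calls without day 9 (474 higher and 238 lower) or day 12 (372 and 230). It holds the same BPS and DMSO libraries, so its estimates are close to those of the 8 libraries and are no independent check. Gene groups are given with 2 counts: members at an unadjusted p under 0.05 in the 8 libraries, and members called in the 16 libraries among genes with 1 CPM in at least 1 DMSO and 1 BPS library. The latter has a background of 7.11% higher and 6.89% lower over 14636 genes. In the median over all genes tested the log2 change was -0.03.

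**Figure D1:**
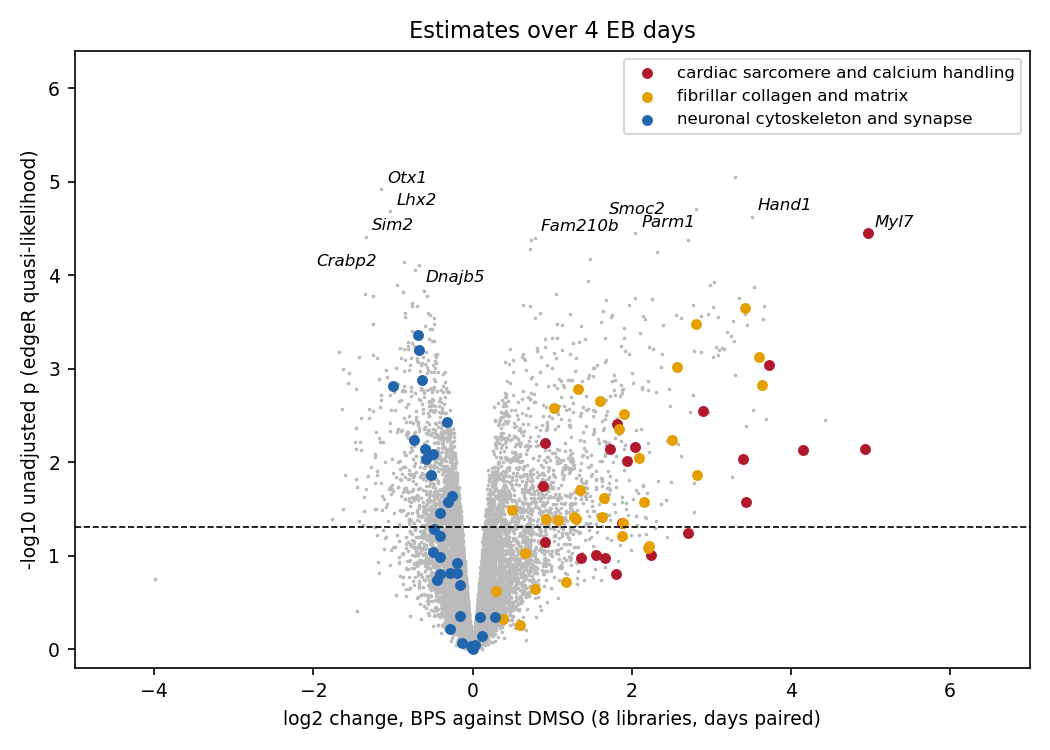
Each point is 1 of 13913 genes: the x axis is the edgeR log2 change of BPS against DMSO from the paired fit, the y axis is -log10 of the unadjusted p, and the dashed line marks its 0.05 level. Cardiac sarcomere and fibrillar matrix genes (coloured) lie to the right of 0 and neuronal cytoskeleton and synapse genes mostly to the left, and the 10 labelled genes run from -1.34 (Sim2) to 4.97 (Myl7).

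The genes with the smallest p among the higher ones, none of which passed the threshold, were led by developmental genes. Myl7, the atrial myosin light chain (Entrez 17898, GRCm38 chromosome 11, 5896637 to 5898782), was at 0.49, 2.1, 1.55 and 1.83 FPKM in DMSO and at 4.68, 60.69, 141.35 and 27.04 FPKM in BPS. All 4 BPS libraries lay above all DMSO libraries, with the widest gap at day 12. Its log2 change was 4.97 ± 0.47 (edgeR adjusted p = 0.0536). Hand1, a transcription factor of heart and lateral mesoderm, was at 0.93, 2.15, 0.57 and 0.06 FPKM in DMSO and at 6.83, 20.64, 13.49 and 0.92 FPKM in BPS (3.50 ± 0.31). It was higher on each of the 4 days, though by day 20 both libraries were under 1 FPKM.

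Smoc2, a secreted calcium-binding matrix protein, was at 0.98, 1.1, 0.42 and 0.26 FPKM in DMSO and at 4.94, 6.74, 3.95 and 2.92 FPKM in BPS (2.81 ± 0.24), without overlap. Parm1 was at 3.44, 10.87, 5.02 and 11.15 against 12.55, 34.79, 35.15 and 42.72 FPKM (2.04 ± 0.19), also without overlap. Fam210b differed less, by 0.78 ± 0.07, but by nearly the same amount on each day (0.71 to 0.86). Over all genes tested, BPS lay wholly above DMSO in 148 (1.06%) and wholly below in 40 (0.288%).

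The genes with the smallest p on the lower side were Otx1, Lhx2, Sim2, Crabp2 and Dnajb5, none past the threshold. Otx1, a homeobox factor of the anterior brain (Entrez 18423, chromosome 11, 21994764 to 22001651), was at 7.48, 28.59, 48.95 and 18.12 FPKM in DMSO and at 3.5, 10.91, 23.67 and 9.09 FPKM in BPS. Both treatments were highest at day 12, with BPS below DMSO on every day, and the log2 change was -1.15 ± 0.09 (edgeR adjusted p = 0.0536). Lhx2, a LIM homeobox factor of eye and cortex, was at 6.32, 7.25, 44.7 and 15.54 against 2.86, 3.85, 21.05 and 8.22 FPKM (-1.03 ± 0.09). Sim2, a bHLH-PAS factor, was at 0.83, 33.74, 13.03 and 2.09 against 0.22, 12.3, 6.06 and 0.91 FPKM (-1.34 ± 0.13). In both, each day's BPS library was below its DMSO library.

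Crabp2, which carries retinoic acid to its receptors, was at 257.85, 304.45, 324.67 and 23.8 FPKM in DMSO and at 150.22, 141.4, 178.1 and 16.1 FPKM in BPS (-0.87 ± 0.09, edgeR adjusted p = 0.0665). The list of retinoic acid metabolism and response genes had 8 of 20 higher and 1 lower at an unadjusted p under 0.05 (median 0.31). The 16 libraries called 9 of 21 higher and 1 lower, with 3 and 0 without day 9 and 0 and 1 without day 12. The chaperone gene Dnajb5 was lower by similar amounts on all days (-0.67 ± 0.07). Genes lower on all 4 days numbered 2244 (16.1%) and genes higher on all 4 days 1559 (11.2%), and 236 (1.7%) were 2-fold or more higher on days 9, 12 and 20, but a difference of 2-fold or more on all 4 days was reached by 68 higher genes (0.489%) and 4 lower ones (0.0288%). The lower ones were Otx1, Sim2, Onecut1 and Onecut3, the last a gene named after its values were seen.

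**Figure D2:**
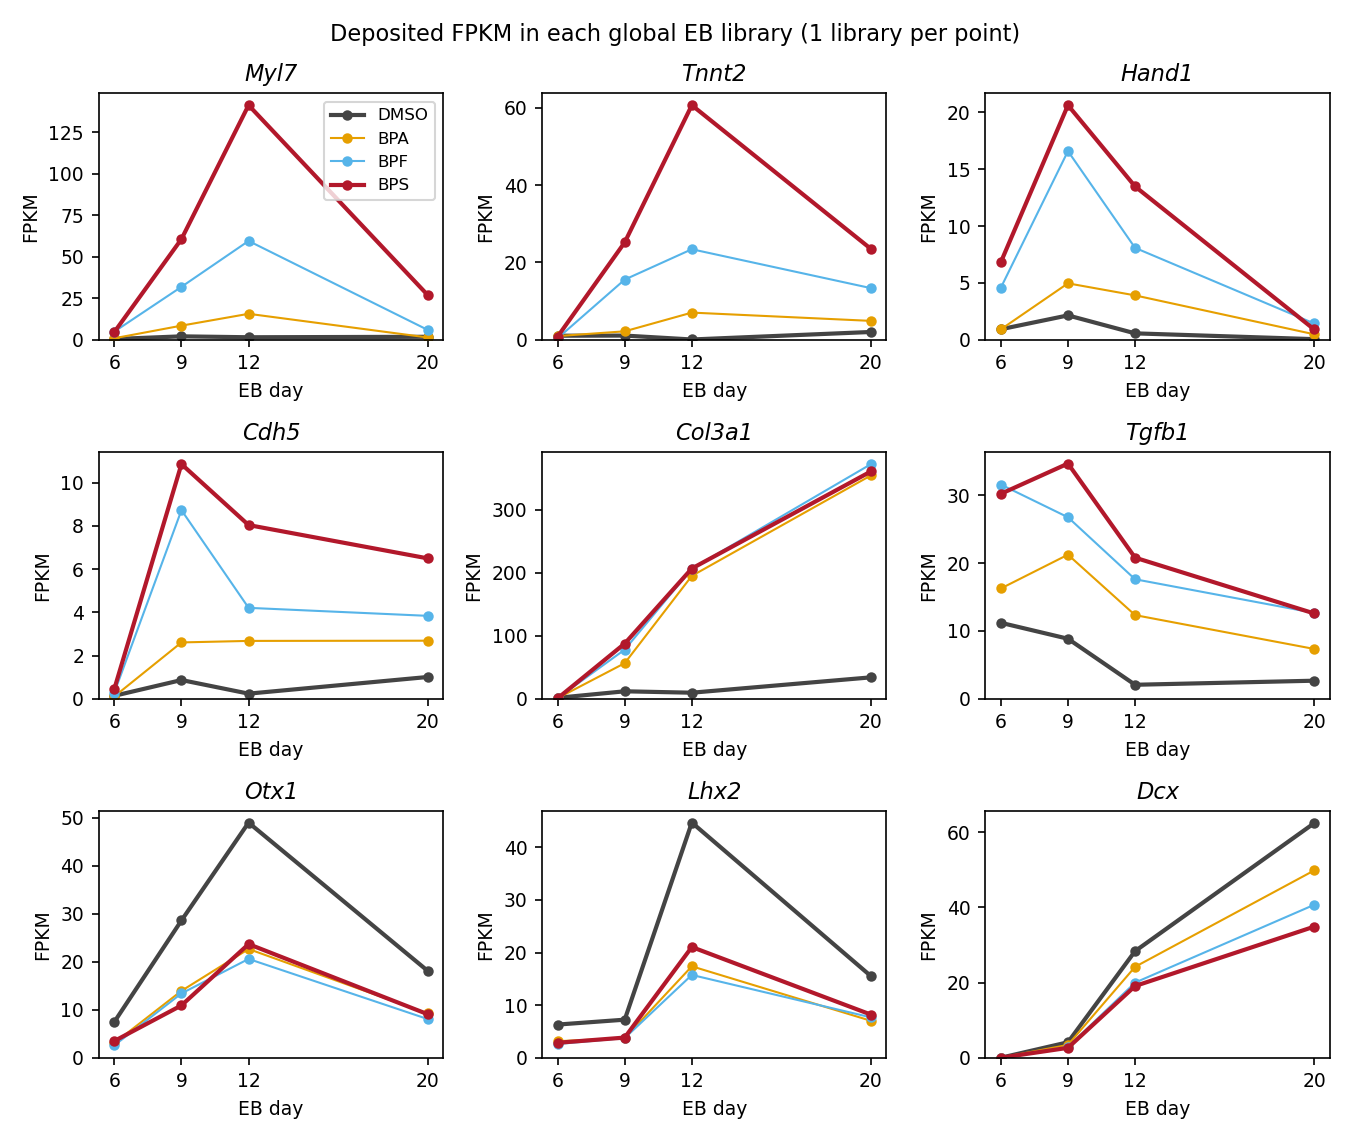
Deposited FPKM (y axis, from 0, a separate scale for each gene) against EB day (x axis) for 9 genes, 1 library per point, in DMSO, BPA, BPF and BPS. Myl7, Tnnt2, Hand1 and Cdh5 were highest in BPS on days 9 and 12, Col3a1 was higher in the 3 bisphenols than in DMSO from day 9, and Otx1 and Lhx2 were lower in the 3 bisphenols on every day.

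The cardiac contractile machinery was far higher from day 9 on. Of 32 listed genes for sarcomere and calcium handling, 21 passed the filter and were tested. At an unadjusted p under 0.05, 14 of 21 were higher and 0 lower, with a median log2 change of 1.94. In the 16 libraries 14 of 21 were called higher and 0 lower, with 7 called without day 9 and 8 without day 12. By day the median difference was -0.02, 2.31, 4.61 and 2.37, so the group was level at day 6 and furthest apart at day 12. The summed level of the list was 120.27, 75.04, 18.27 and 63.7 FPKM in DMSO and 104.76, 347.8, 643.85 and 311.03 FPKM in BPS. The skeletal muscle list also differed at day 20 (median 1.87, 7 of 9 genes 2-fold or more higher and 0 lower). Over the 4 days 1 of these 9 was higher and 2 lower at an unadjusted p under 0.05. Which kind of muscle the difference at day 20 comes from was not tested.

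Tnnt2, cardiac troponin T, was at 1.06, 1.1, 0.09 and 2.03 FPKM in DMSO and at 0.82, 25.19, 60.65 and 23.52 FPKM in BPS. Myh6, the alpha myosin heavy chain, was at 1.04, 1.01, 0.06 and 1.38 against 0.72, 11.79, 40.22 and 12.64 FPKM. At day 6 both genes were slightly lower in BPS, and on the later days they were far higher. Their log2 changes were 4.15 ± 1.06 for Tnnt2 and 3.44 ± 1.19 for Myh6 in the 8 libraries (edgeR adjusted p = 0.148 and 0.225). In the fit to 16 libraries both were called (adjusted p = 0.00158 and 0.00663). Tnni1, slow troponin I, was higher on all 4 days, at 0.78, 3.2, 0.58 and 1.86 in DMSO and 2.6, 32.71, 48.04 and 17.85 FPKM in BPS (3.72 ± 0.62, adjusted p = 0.0782 in the 8 and 8.12e-05 in the 16 libraries).

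Actc1, cardiac alpha actin (Entrez 11464, chromosome 2, 114047282 to 114052875), began high in both treatments. In DMSO it was at 53.31, 32.26, 3.26 and 2.52 FPKM, and in BPS at 28.38, 69.82, 138.63 and 60.14 FPKM. Its order thus turned between day 6 and the later days, and neither fit called it (log2 change 2.24 ± 1.15, edgeR adjusted p = 0.355 in the 8 and 0.0814 in the 16 libraries). Mybpc3, cardiac myosin-binding protein C, was 6.24 higher on the log2 scale at day 12.

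The promoters of Myl7 and Actc1 are shown because they stand among the genes furthest apart at days 12 and 20 and each holds a CArG box, the motif bound by serum response factor, the regulator of muscle actin and myosin genes. The sequences are from RefSeq (GRCm38.p6), run 5′ to 3′ across the start site, and have the CArG box in capitals.
Myl7 promoter, chr11:5898733-5899032, minus strand: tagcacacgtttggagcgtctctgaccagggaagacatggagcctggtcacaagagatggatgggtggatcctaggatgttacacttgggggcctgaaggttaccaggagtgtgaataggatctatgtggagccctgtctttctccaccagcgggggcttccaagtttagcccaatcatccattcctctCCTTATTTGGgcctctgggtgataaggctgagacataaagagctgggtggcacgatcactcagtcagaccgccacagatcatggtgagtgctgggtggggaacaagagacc
Actc1 promoter, chr2:114052826-114053125, minus strand: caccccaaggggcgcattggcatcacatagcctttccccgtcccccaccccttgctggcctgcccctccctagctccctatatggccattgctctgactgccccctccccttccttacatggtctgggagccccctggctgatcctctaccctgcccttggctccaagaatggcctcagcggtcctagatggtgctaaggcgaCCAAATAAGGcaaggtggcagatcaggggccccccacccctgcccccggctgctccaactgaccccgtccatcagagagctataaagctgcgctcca
The box begins 61 bases before the start of Myl7 and 47 bases before that of Actc1. A search on both strands found the CArG box in 5 of 28 promoters of the sarcomere list (17.9%), namely those of Actc1, Ldb3, Myl3, Myl7 and Myom1, in 2 of 16 of the smooth muscle list (12.5%), and in 425 of all 27025 RefSeq promoters (1.57%). The oestrogen response element GGTCANNNTGACC was in 0 promoters of either list and in 18 of all promoters searched (0.0666%). These are matches of letters, which show neither binding nor its absence.

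Transcription factors of the heart were higher more evenly over time. At an unadjusted p under 0.05, 12 of 16 were higher and 0 lower in the 8 libraries (median 2.04), and 14 of 16 were called higher in the 16 libraries, which became 6 of 16 without day 12 and 8 of 15 without day 9. The medians by day were 0.68, 1.90, 3.17 and 1.06. Hand2, a bHLH factor of the ventricles, was at 0.17, 4.38, 3.57 and 2.62 FPKM in DMSO and at 1.65, 15.05, 17.07 and 7.06 FPKM in BPS (1.97 ± 0.25, adjusted p = 0.0665 in the 8 and 0.000599 in the 16 libraries). Gata4, a zinc finger factor of heart and endoderm, was at 2.38, 3.15, 1.64 and 23.43 against 4.34, 7.14, 11.03 and 27.86 FPKM (1.16 ± 0.38). Its difference nearly closed at day 20. Tbx20, a T-box factor of the heart that is also on the list of neuron identity, lay in all 4 BPS libraries (1.76, 4.1, 3.21 and 0.75 FPKM) above every DMSO library (0.13, 0.27, 0.06 and 0.27).

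**Figure D3:**
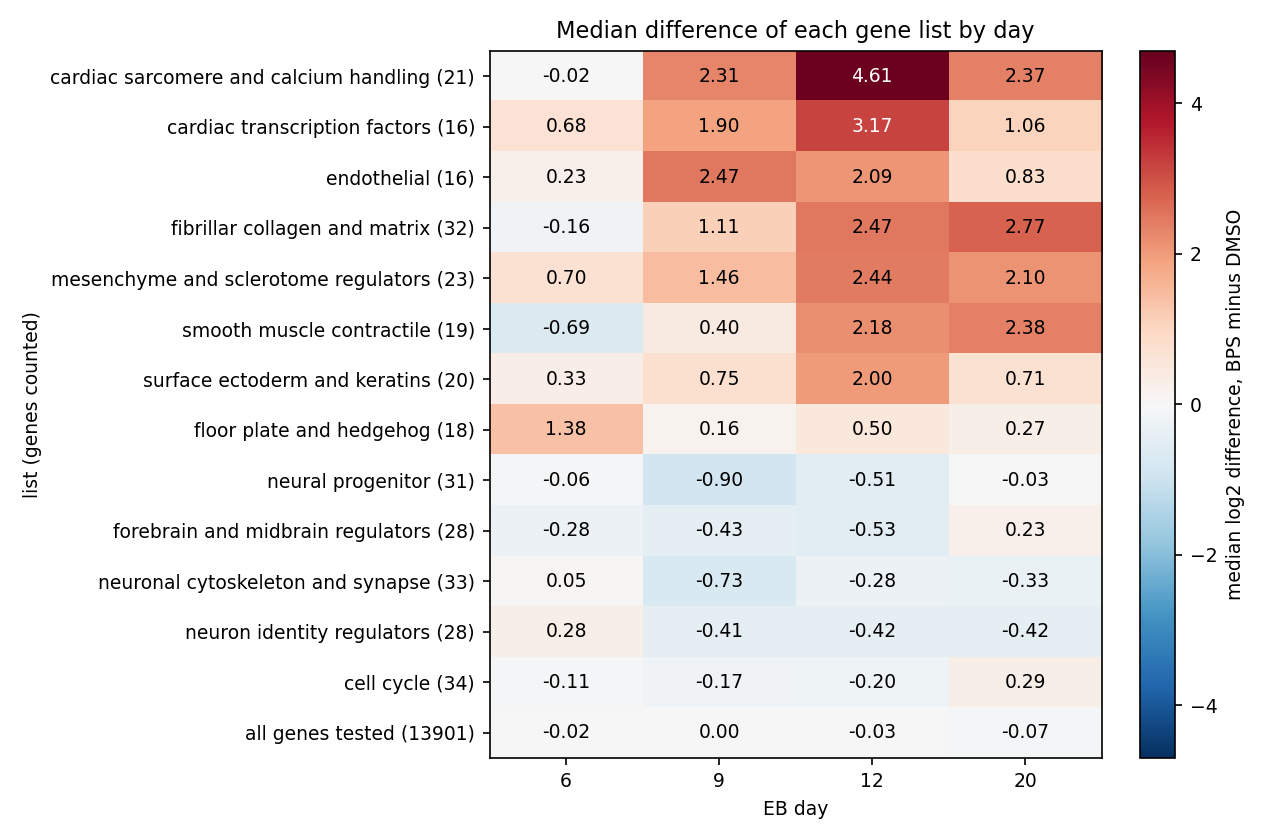
Median log2 difference, BPS minus DMSO, of 13 gene lists (rows, with the genes counted) and of all genes tested at each EB day (columns), 1 library per treatment and day. The cardiac, endothelial, matrix and mesenchyme rows run from near 0 or under 1 at day 6 to medians of 2.09 to 4.61 at day 12, and the neural progenitor, forebrain and neuron rows lie between -0.90 and 0.28.

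Most vessel genes were higher. Endothelial genes were higher in 12 of 16 at an unadjusted p under 0.05 (median 1.44, 0 lower), and 12 of 17 were called in the 16 libraries, 5 without day 9 and 4 without day 12. Their medians by day were 0.23, 2.47, 2.09 and 0.83, with the peak a step earlier than for the sarcomere genes. Cdh5, the cadherin of endothelial junctions, was at 0.14, 0.87, 0.24 and 1.01 FPKM in DMSO and at 0.46, 10.86, 8.04 and 6.5 FPKM in BPS (3.42 ± 0.46, adjusted p = 0.0665 in the 8 and 6.72e-05 in the 16 libraries). Mmrn2, a matrix protein of vessel walls, was at 0.28, 0.91, 0.5 and 0.21 against 0.49, 6.71, 2.31 and 0.65 FPKM (2.02 ± 0.37). Pecam1 was close at days 6 and 20 and higher between (3.09 against 8.47 FPKM at day 9 and 1.5 against 5.93 at day 12).

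Blood genes differed among themselves. Of 23 erythroid and globin genes 5 were tested, 1 was higher and 0 lower at an unadjusted p under 0.05 (median -0.07, medians by day 0.48, 0.77, -0.42 and -0.33), and 0 of 5 were called in the 16 libraries. Runx1 had a log2 change of 0.93 ± 0.38, and Tal1 (-0.25 ± 0.46), Gata2 (-0.07 ± 0.32), Lmo2 (-0.02 ± 0.18) and Ank1 (-0.14 ± 0.36) were below 0. Embryonic globins were not tested, because they passed 1 CPM in too few libraries. Hba-x, the zeta globin of primitive red cells, was at 0, 0.31, 0.49 and 0 FPKM in DMSO and at 0.31, 32.04, 56.37 and 0 in BPS. Hbb-bh1, a partner beta-type globin, was at 0.32, 0.16, 0.68 and 0 against 0.79, 35.48, 67.46 and 0 FPKM. Both were thus high in 2 BPS libraries, those of days 9 and 12, and at 0 in both treatments at day 20. Of 5 tested macrophage and leukocyte genes 2 were higher and 0 lower at an unadjusted p under 0.05, and 2 of 7 were called higher in the 16 libraries (1 without day 9 or day 12). They were Csf1r, a macrophage receptor (2.13 ± 0.39, 0.12 to 0.46 FPKM in DMSO and 0.19 to 2.26 in BPS, edgeR adjusted p = 0.0934), and the actin-bundling gene Lcp1 (1.30 ± 0.39). The others were Laptm5 (0.61 ± 0.44), Cd68 (0.34 ± 0.31) and Coro1a (-0.30 ± 0.17).

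Connective tissue genes were higher across most of their list. Of 32 tested genes for fibrillar collagens and matrix, 23 were higher at an unadjusted p under 0.05 and 0 lower (median 1.64), and 20 of 34 were called higher in the 16 libraries. Without day 12 this was 10 of 34, and 13 of 32 without day 20. The medians by day, -0.16, 1.11, 2.47 and 2.77, kept widening to day 20, unlike those of cardiac and endothelial genes. Col3a1, a fibrillar collagen, was at 1.61, 11.96, 9.72 and 34.08 FPKM in DMSO and at 0.76, 87.69, 206.84 and 360.81 FPKM in BPS. Day 6 went the other way, and the log2 change was 2.82 ± 0.82 (edgeR adjusted p = 0.184 in the 8 and 0.0067 in the 16 libraries). Lum, the proteoglycan lumican, was at 0.22, 2.32, 1.28 and 2.52 against 0.31, 16.51, 31.92 and 28.41 FPKM (3.42 ± 0.44, adjusted p = 0.0665 in the 8 libraries). Col1a1 was lower in BPS at day 6 (21.16 against 6.66 FPKM) and far higher at day 20 (34.76 against 503.58 FPKM).

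Regulators of mesenchyme and sclerotome were higher in 17 of 23 at an unadjusted p under 0.05 and lower in 0 (median 1.67), and 17 of 24 were called in the 16 libraries (11 without day 9). Foxf1, a forkhead factor of splanchnic mesoderm that passed the filter only through the BPS libraries and is not in these counts of the 8 libraries, was at 0.15, 0.38, 0.32 and 0.39 FPKM in DMSO and at 0.68, 2.47, 5.4 and 2.61 FPKM in BPS. Prrx1, a homeobox factor of limb and head mesenchyme, was at 0.76, 2.64, 1.66 and 1.41 against 1.53, 7.12, 7 and 6.03 FPKM (1.67 ± 0.21, adjusted p = 0.0665). Osr1, a zinc finger factor of intermediate and lateral mesoderm, was 4.97 higher on the log2 scale at day 20, with 0.27 against 9.77 FPKM.

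In smooth muscle contractile genes the order of the treatments turned with time. Of 19 genes 3 were higher and 1 lower at an unadjusted p under 0.05, with a median of 1.11, and 3 and 1 were called in the 16 libraries. Without day 6 the 16-library count was 9 higher, and without day 12 or day 20 it was 0. The medians by day were -0.69, 0.40, 2.18 and 2.38. Acta2, smooth muscle actin and a gene named after its values were seen, showed the turn: 370.51, 138.61, 11.26 and 40.96 FPKM in DMSO against 120.73, 213.95, 211.38 and 348.76 FPKM in BPS. Synm, the intermediate filament protein synemin, was lower on all days (-0.95 ± 0.11, adjusted p = 0.0665 in the 8 libraries). Myocd, the cardiac and smooth muscle coactivator of serum response factor, was higher on all days at low levels (0.06, 0.18, 0.04 and 0.1 against 0.53, 1.81, 1.22 and 0.49 FPKM), and passed the filter only through the BPS libraries.

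Genes of surface epithelia were higher as well. Of 20 tested members of the surface ectoderm and keratin list, 11 were higher and 1 lower at an unadjusted p under 0.05 (median 0.89), and 10 of 22 were called in the 16 libraries, 3 without day 12 and 5 without day 9. Cldn4, a tight junction protein, was at 13.83, 8.62, 5.03 and 5.57 FPKM in DMSO and at 25.42, 19.86, 22.85 and 8.89 FPKM in BPS (1.21 ± 0.25, edgeR adjusted p = 0.108). The desmosome gene Dsp was higher by 1.43 ± 0.32, with 1.76 against 12.24 FPKM at day 12.

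Signalling lists differed in direction. In the BMP and TGF-beta list 11 of 26 genes were higher and 1 lower at an unadjusted p under 0.05, and 12 of 29 were called higher in the 16 libraries (6 of 28 without day 9 or day 12). Tgfb1, the ligand TGF-beta 1, was at 11.2, 8.85, 2.07 and 2.67 FPKM in DMSO and at 30.19, 34.65, 20.79 and 12.58 FPKM in BPS (2.14 ± 0.29, adjusted p = 0.0665 in the 8 and 0.000102 in the 16 libraries). All BPS libraries were above all DMSO libraries. Bmp5 was higher by 1.22 ± 0.19. Of 25 FGF and insulin-like growth factor genes 14 were higher and 1 lower, and 16 of 26 were called higher and 1 lower in the 16 libraries (8 and 0 without day 9 or day 12). Igf2, the imprinted fetal growth factor, was at 166.6, 353.37, 125.52 and 348.44 against 215.36, 802.98, 613.55 and 1231 FPKM (1.42 ± 0.30), and the binding protein gene Igfbp4 was higher by 1.06 ± 0.20. Of 32 Wnt pathway genes 6 were higher and 6 lower at an unadjusted p under 0.05 (median 0.06), and 5 and 7 of 35 were called in the 16 libraries, with 4 and 1 without day 9 and 3 and 2 without day 12. Of 20 Notch pathway genes 5 were higher and 4 lower (median -0.08), and 3 and 5 of 21 were called, with 2 and 0 without day 9 and 3 and 0 without day 12.

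Floor plate and hedgehog genes differed at day 6 already. Their median difference was 1.38 at day 6 and then 0.16, 0.50 and 0.27, and 7 of 18 were higher and 2 lower at an unadjusted p under 0.05 (7 and 1 called in the 16 libraries, 4 and 0 without day 9, 3 and 0 without day 12). Shh, the ligand, was at 4.74, 32.13, 9.5 and 1.49 FPKM in DMSO and at 22.28, 49.13, 28 and 4.72 FPKM in BPS. Foxa1, a forkhead factor of floor plate and endoderm, was at 1.39, 13.6, 9.19 and 5.02 against 5.33, 23.69, 21.57 and 16.85 FPKM (1.36 ± 0.19, adjusted p = 0.0668). Corin, a membrane protease, was higher by 1.45 ± 0.17. Among Hox genes 8 of 39 were tested, of which 5 were higher and 0 lower at an unadjusted p under 0.05 (6 of 11 called higher in the 16 libraries, 3 of 8 without day 20), with Hoxb2 at 0.23, 1.77, 1.94 and 1.16 against 0.74, 3.88, 4.8 and 5.31 FPKM.

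A part of the neural genes was lower, by less. The medians of the neural progenitor list by day were -0.06, -0.90, -0.51 and -0.03, so days 6 and 20 were near level. Its summed level at day 20 was 1180.4 FPKM in DMSO and 1402.7 in BPS. Of 31 neural progenitor genes 12 were lower and 2 higher at an unadjusted p under 0.05 (median -0.37), and 13 of 33 were called lower and 1 higher in the 16 libraries, with 5 called lower without day 9 and 5 without day 12. Pax6, the paired box factor of forebrain and eye, was at 4.09, 6.67, 14.41 and 9.34 FPKM in DMSO and at 1.53, 1.86, 6.25 and 5.08 FPKM in BPS (-1.35 ± 0.16, adjusted p = 0.0665 in the 8 and 0.000236 in the 16 libraries). Sox1, of early neural cells, was at 39.95, 32.38, 39.19 and 11.2 against 23.18, 14.4, 24.88 and 10.22 FPKM, with little difference left at day 20. Nes, the third progenitor marker, was at 19.61, 40.17, 62.04 and 7.29 against 13.25, 29.77, 52.61 and 17.57 FPKM, so its order turned at day 20. Hes1, a Notch target, was higher on all days (0.44 ± 0.08). Forebrain and midbrain regulators went both ways, with 8 of 28 lower and 5 higher at an unadjusted p under 0.05, 7 of 30 called lower and 4 higher in the 16 libraries, and a median of 0.23 at day 20.

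Among genes of the neuronal cytoskeleton and synapse, 13 of 33 were lower and 0 higher at an unadjusted p under 0.05 (median -0.32), and 13 of 33 were called lower in the 16 libraries, 5 without day 9 and 8 without day 12. Dcx, the microtubule protein of young neurons, was at 0.02, 4.14, 28.38 and 62.41 FPKM in DMSO and at 0.03, 2.66, 19.1 and 34.89 FPKM in BPS (-0.69 ± 0.10, adjusted p = 0.0751 in the 8 and 0.000253 in the 16 libraries). It appeared at day 9 in both treatments, and from then on BPS was below DMSO. Celf4, an RNA-binding protein of neurons, was lower on all days (-0.67 ± 0.11). The summed level of the list was 158.94, 584.01, 1567.2 and 4609.9 FPKM in DMSO and 152.28, 357.48, 1214.4 and 3725.8 FPKM in BPS. Its part in the differences of the mesodermal groups was not tested.

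Regulators of neuron identity were lower in 12 of 28 and higher in 3 at an unadjusted p under 0.05, and 12 of 31 were called lower and 2 higher in the 16 libraries, with 5 lower without day 9 and 5 without day 12. Onecut1 was at 0.25, 6.86, 13.06 and 2.87 against 0.1, 2.71, 5.21 and 0.45 FPKM (-1.62 ± 0.28, edgeR adjusted p = 0.0813). Slc17a6, the vesicular glutamate transporter, was at 2.49, 13.89 and 25.68 FPKM from day 9 on in DMSO and at 1.24, 8.18 and 16.21 FPKM in BPS (-0.82 ± 0.12). Axon guidance genes went both ways, with 10 of 35 higher and 7 lower at an unadjusted p under 0.05 (median 0.17). The 16 libraries called 9 higher and 6 lower, with 4 and 1 without day 9 and 3 and 2 without day 12. In that list the receptor gene Dcc was lower (-0.76 ± 0.10) and the ligand gene Slit3 higher (1.28 ± 0.22).

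Of 34 cell cycle genes 1 was higher and 2 lower at an unadjusted p under 0.05, below the shares over all genes, and 1 and 1 were called in the 16 libraries. Their median of -0.04 joins days of opposite sign, with medians of -0.11, -0.17, -0.20 and 0.29, and without day 20 the 16-library count was 9 lower and 0 higher. The summed level was 3354, 2621.1, 2052.4 and 443.64 FPKM in DMSO and 3136, 2332, 1824.8 and 549.51 FPKM in BPS. Of 21 p53 target and apoptosis genes 9 were lower and 1 higher, among them Eda2r (-0.56 ± 0.08) and the nuclease gene Aen (-0.49 ± 0.07), which was at 64.38, 72.93, 70.3 and 46.38 FPKM in DMSO and at 46.73, 53.55, 45.95 and 36.62 FPKM in BPS. The 16 libraries called 9 of 21 lower, and 2 without day 9 or day 12. Cholesterol synthesis genes were lower in 8 of 25 and higher in 0 (median -0.20), and the 8 called in the 16 libraries became 0 without day 9 or day 12.

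Of the receptors that bisphenols are known to bind, several were hardly detected. Esr1, oestrogen receptor alpha, was at 0.01, 0, 0.07 and 0.03 FPKM in DMSO and at 0, 0, 0 and 0.16 in BPS, and like Gper1 it was too low to be tested. Esr2 was at or below 0.49 FPKM in all 8 libraries. The oestrogen-related receptor gene Esrra was at 5.67 to 9.74 FPKM in DMSO and 6.02 to 8.4 in BPS, with a log2 change of -0.08 ± 0.17, and Esrrb differed by -0.32 ± 0.15 and Esrrg by 0.44 ± 0.39. Ahr, the aryl hydrocarbon receptor, was at 2.27, 1.36, 0.55 and 1.22 against 2.13, 3.2, 2.74 and 2.66 FPKM (1.08 ± 0.37, edgeR adjusted p = 0.222 in the 8 and 0.0433 in the 16 libraries). The thyroid receptor genes Thra (-0.09 ± 0.10) and Thrb (0.02 ± 0.33) had adjusted p of 0.676 and 0.979.

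Day by day, and without a test, day 12 held the most genes that were 2-fold or more higher. At day 6, 485 genes were higher (3.49%) and 307 lower (2.21%) by 2-fold or more. The counts were 654 (4.7%) and 453 (3.26%) at day 9, 1180 (8.48%) and 310 (2.23%) at day 12, and 833 (5.99%) and 177 (1.27%) at day 20. With a prior count of 5 in place of 1, which shrinks the differences of low genes, the lower counts were 151 at day 6 and 117 at day 20. At day 6 the highest differences were those of Tph1, an enzyme of serotonin synthesis (0.31 against 6.14 FPKM), the homeobox gene Lhx1 (0.7 against 11.28) and the R-spondin receptor gene Lgr5 (0.56 against 6.33). None of these 3 was 2-fold higher at day 20.

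The lowest at day 6 were the forebrain factor Fezf2 (5.06 against 1.08 FPKM), Wnt8b (6.16 against 1.39), Postn (37.3 against 11.52) and Col1a1. At day 9 Wnt8b was again among the lowest (11.2 against 1.42 FPKM), with Olig2 (6.85 against 1.33) and Tfap2b (12.91 against 2.64), and Tnnt2, Depp1 (0.36 against 6.17) and Plvap, a diaphragm protein of vessels (0.82 against 12.05), were among the highest. At day 12 the long noncoding RNA Miat (25.11 against 4.3) and Wfdc1 (30.44 against 5.48) were among the lowest. Day 20 had Myh3, embryonic myosin heavy chain (0.15 against 5.33 FPKM), and Osr1 among the highest, and Tfap2d, Shox2, Fgb and Afp among the lowest, the last at 26.02 against 6.93 FPKM.

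Afp had been at 148.8 FPKM in BPS and 4.77 in DMSO at day 12, so the yolk sac and liver marker changed order between these days. Tmem254b (0, 0, 0 and 19.65 FPKM in BPS, 20.21, 14.14, 10.21 and 0 in DMSO) and Tmem254c (22.95, 13.44, 14.63 and 7.52 in BPS, 0.88, 0.98, 2.53 and 16.87 in DMSO) are near-identical copies whose reads may have been divided differently between libraries, and their values are uncertain. The same holds for H2ac13, Mir686, Rpl37rt and Cers1, which stood among the extremes of single days and share sequence or position with other genes.

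**Figure D4:**
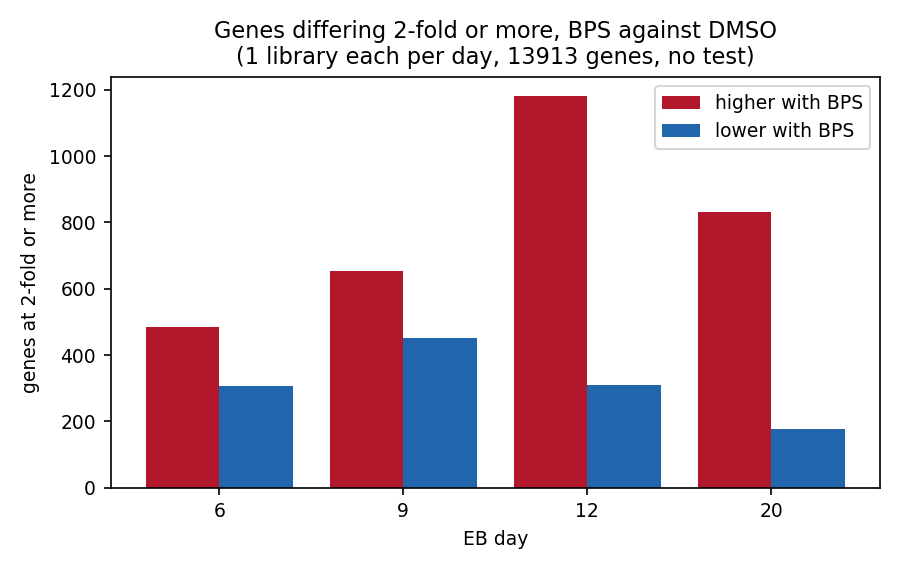
Number of genes (y axis, from 0) that were 2-fold or more higher (red) or lower (blue) in the BPS than in the DMSO library of each EB day (x axis), of 13913 genes. Higher genes outnumbered lower ones on all 4 days, with 485 higher and 307 lower at day 6 and 1180 higher and 310 lower at day 12, and with a prior count of 5 the lower counts of days 6 and 20 were 151 and 117.

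Whether the difference itself differed between days 6 and 9 and days 12 and 20 was tested by an interaction term (2 residual degrees of freedom). It called 0 of 13913 genes in edgeR. At an unadjusted p under 0.05, the BPS minus DMSO difference was higher on the earlier than on the later days in 370 genes (2.66%). It was lower on the earlier days in 597 (4.29%), which does not require BPS to be below DMSO then. DESeq2 called 6 and 57. The smallest p among lower genes with a clear level were those of Col8a1, a short-chain collagen, and Postn, the matrix protein periostin (interaction -3.87 ± 0.25 and -3.92 ± 0.26, edgeR adjusted p = 0.0879 for both). Col8a1 was at 1.23, 4.02, 0.53 and 2.94 FPKM in DMSO and at 0.88, 2.25, 5.77 and 24.25 in BPS, and Postn at 37.3, 165.76, 11.65 and 16.52 against 11.52, 82.4, 65.41 and 108.21. In both, BPS was the lower on days 6 and 9 and the higher on days 12 and 20. Wsb1 (interaction 1.56 ± 0.17), Tal1 (2.37 ± 0.35) and Snhg11 (2.15 ± 0.32) went the opposite way, with adjusted p of 0.374 to 0.461. Cers1 was also among them, with the uncertainty given above.

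BPS was also set against DMSO in the neural branch. An interaction term over 12 libraries (4 residual degrees of freedom) called 0 of 14355 genes in edgeR. At an unadjusted p under 0.05, the BPS minus DMSO difference was higher in global EBs than in the neural branch in 929 genes (6.47%) and lower in 854 (5.95%). DESeq2 called 128 and 55. Prrx1, which was higher with BPS in global EBs, was lower with BPS in retinoic acid-treated EBs (1.79 against 0.7 FPKM) and in neural progenitor cultures (10.69 against 6.28 FPKM, interaction 2.64 ± 0.34, edgeR adjusted p = 0.115). Crabp2 was lower with BPS in global EBs and higher with BPS in the neural branch, at 811.79 against 1214.4 and 266.81 against 340.32 FPKM (-1.38 ± 0.16, adjusted p = 0.115). Pax6 was at 49.22 against 52.12 and 12.78 against 18.38 FPKM there (-1.67 ± 0.24). Tmem176b (1.40 ± 0.19), Sparcl1 (1.82 ± 0.25) and Prmt8 (-1.13 ± 0.16) had the same adjusted p. The matrix list, with a median of up to 2.77 in global EBs, was at -0.13 in retinoic acid-treated EBs and -1.02 in neural progenitor cultures.

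BPS was then compared with BPA and with BPF at the same dose and days, 2 pairs of compounds in all. Higher levels in BPS than in BPA were more common than lower ones: 144 of 14019 genes passed an adjusted p of 0.05 as higher in BPS (1.03%) and 16 as lower (0.114%), with 1015 (7.24%) and 751 (5.36%) at an unadjusted p under 0.05. Without day 9 it was 30 and 1, and without day 12 it was 15 and 0. The fit to 16 libraries called 7 (0.0471%) and 0 by edgeR, with 741 and 560 at an unadjusted p under 0.05. Adjusted over the genes of both pairs together, 112 were higher and 9 lower. Cardiac genes led: within this pair 12 of 20 sarcomere genes and 8 of 15 cardiac transcription factors were called higher in BPS than in BPA. Their medians were 1.40 and 1.30, against -0.02 over all genes.

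In BPA, Myl7 was at 0.96, 8.55, 15.68 and 1.43 FPKM, below BPS on every day, and the log2 difference was 3.13 ± 0.18 (edgeR adjusted p = 1.84e-05). Tnni1 was at 0.72, 6.34, 7.67 and 3.56 FPKM (2.43 ± 0.13, adjusted p = 1.83e-05). Gata4 (1.30 ± 0.11), Cdh5 (1.67 ± 0.15) and Tgfb1 (0.78 ± 0.07) were also higher in BPS on each day, with adjusted p from 0.000569 to 0.000726. Surface ectoderm genes were called higher in 9 of 20. Lower in BPS than in BPA were Vtn, the adhesion protein vitronectin (-0.59 ± 0.10), the neuronal genes Dcx (-0.42 ± 0.07) and Elavl4 (-0.40 ± 0.07), the kinase gene Pak3 (-0.37 ± 0.06) and Arl4a (-0.39 ± 0.06), with adjusted p from 0.02 to 0.0242. None of these 5 calls held without day 9 (adjusted p = 0.0663 to 0.141), without day 12 (0.152 to 0.235) or in the 16 libraries, nor did those of Gata4, Cdh5 and Tgfb1 in the 16 libraries (edgeR adjusted p = 0.0712 to 0.258). Of 33 neuronal cytoskeleton and synapse genes 4 were called lower in BPS.

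Against BPF fewer genes passed. In BPS 24 of 14063 genes were higher (0.171%) and 0 lower by edgeR, with 529 (3.76%) and 353 (2.51%) at an unadjusted p under 0.05 and 7 and 0 by DESeq2. Without day 9 it was 2 and 0, without day 12 it was 4 and 2, without day 20 it was 14 and 2, and the fit to 16 libraries called 0 (147 and 139 at an unadjusted p under 0.05). Of 21 sarcomere genes 10 were called higher in BPS, with a median of 0.75. Myh6 was at 0.7, 6.5, 12.09 and 4.62 FPKM in BPF (1.30 ± 0.14, edgeR adjusted p = 0.00112), Tnnt2 at 0.4, 15.57, 23.42 and 13.37 (0.99 ± 0.12, adjusted p = 0.00317), Hand2 was 0.71 ± 0.10 higher in BPS and Myl4, an atrial and embryonic myosin light chain, 0.84 ± 0.12. The call of Myh6 was lost with DESeq2 (adjusted p = 0.812), that of Tnnt2 without day 12 (edgeR adjusted p = 0.0653), and those of Hand2 and Myl4 without day 9 (both 0.0827) or day 12 (both 0.199). Tmem254c was also called. Lox (-0.46 ± 0.09), which crosslinks collagen, Vtn (-0.29 ± 0.06) and Neurog2 (-0.44 ± 0.09) had the smallest p among lower genes and did not pass (adjusted p = 0.0943 to 0.11).

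**Figure D5:**
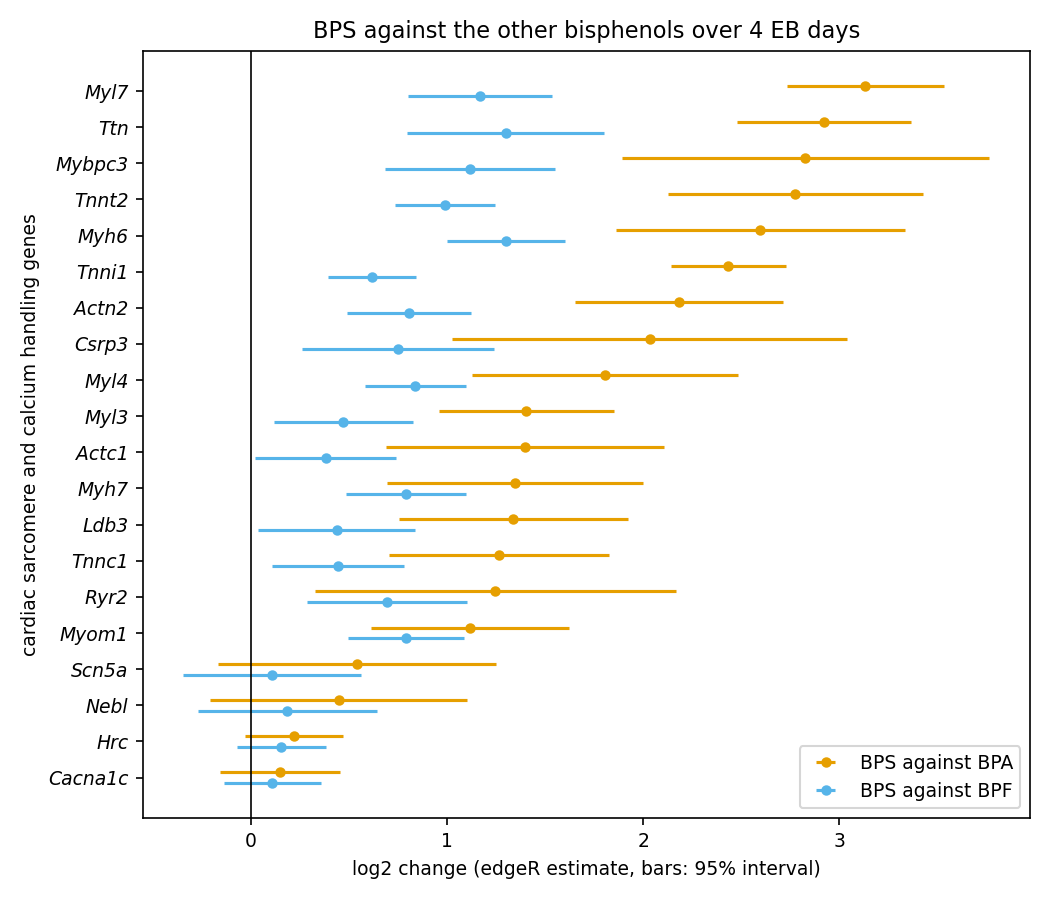
Log2 change (x axis, edgeR estimate with its 95% interval) of 20 cardiac sarcomere and calcium handling genes (y axis) between BPS and BPA (orange) and between BPS and BPF (blue) over the 4 EB days. Intervals lie above 0 for 16 of 20 genes in each comparison, with the highest estimates for Myl7 against BPA (3.13) and Myh6 against BPF (1.30).

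For Col3a1, Otx1 and Shh the interval of the difference included 0. The difference of Col3a1 from BPA was 0.20 with a 95% interval of -0.05 to 0.45, and from BPF 0.01 with an interval of -0.12 to 0.15. Otx1 differed by -0.05 (-0.26 to 0.15) from BPA and by 0.08 (-0.12 to 0.29) from BPF, and Shh by -0.12 (-0.39 to 0.16) and -0.09 (-0.25 to 0.07). Of the matrix list 1 of 34 genes was called higher in BPS than in BPA and 0 of 33 than in BPF. At an unadjusted p under 0.05 it had 9 higher and 4 lower against BPA, and 0 and 4 against BPF. At the same unadjusted threshold, endothelial genes were higher in 16 of 16 against BPA and in 13 of 17 against BPF. Of these, 3 and 1 passed an adjusted p of 0.05 (edgeR). Neuronal cytoskeleton and synapse genes were lower in 16 of 33 against BPA at the unadjusted threshold, and 4 were higher and 3 lower against BPF. At the adjusted threshold 4 were lower against BPA and 0 against BPF. Over all genes 7.24% were higher and 5.36% lower against BPA at the unadjusted threshold, and 3.76% and 2.51% against BPF. The summed sarcomere list at day 12 was 18.27 FPKM in DMSO, 105.26 in BPA, 287.8 in BPF and 643.85 in BPS, while the neuronal cytoskeleton and synapse list was at 1567.2, 1459, 1211.5 and 1214.4.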

How the data were processed

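RNA sequencing of 8 global EB libraries (BPS or DMSO at 4 days) was analysed, with the BPA and BPF libraries of the same days and the BPS and DMSO libraries of the other stages for comparison. The authors deposited expected counts (estimated reads per gene, not normalised) and FPKM. RSEM, HISAT and Bowtie2, with build mm10, appear in the submitters' processing notes, and their roles and versions are not given in the sources used here. Per the labels' protocols, RNA extraction used Trizol followed by RNeasy Plus columns, and BGI made the libraries. The files list no gene under 0.01 FPKM, and such genes were taken as 0. RefSeq GRCm38.p6 held 20362 of 20420 genes by name or ID and 9 more by transcript, leaving 49.

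Expected counts were rounded and fitted with edgeR 4.0.16 (quasi-likelihood, TMM factors) in R 4.3.3, with a term for day and a term for treatment. Genes with 1 CPM or more in at least 4 libraries were kept, and p-values were Benjamini-Hochberg adjusted over all genes tested. Genes were called at an adjusted p under 0.05. Single-day log2 values used a prior count of 1. DESeq2 1.42.0 and limma 3.58.1 on log2(FPKM + 1) were alternatives. The fits were tested on simulated data. Intervals are at 95% confidence, and standard errors follow from edgeR's F statistic.

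The members and the 47 gene lists (1132 genes, 895 tested) were chosen with earlier results of these data known. A list needed at least 5 tested members to be described, and not every such list is. At an unadjusted p under 0.05, lists left out include astrocyte (4 higher and 1 lower of 18) and neural crest (3 and 4 of 13). Others are hypoxia and glycolysis (3 and 0 of 29), respiratory chain (0 and 2 of 28) and formative epiblast (5 and 6 of 17). The oestrogen response list, given by median alone, had 5 and 0 of 21. Genes passing the filter through 1 treatment alone were left out of list counts. Genes were named by smallest p: for each fit those called with a mean of 1 FPKM or more, or, where few were called, 5 (BPS against DMSO) or 3 in each direction as not past the threshold. For each day the 5 highest and 5 lowest differences among genes with 5 FPKM or more were eligible, for lists up to 4 called members or else the 2 with the smallest p, and always the receptors, of which 1 is not reported here, and the defining markers of cell types. Gene models and pseudogenes were passed over. Acta2, Onecut3 and the members named to complete a list's account (of the erythroid, macrophage and pluripotency lists) were added after their values were seen, and Ldb3, Myl3 and Myom1 are named for their promoters.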

Additional observations from a re-analysis of the deposited data

Results flagged for a closer look

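The 4 daily values of BPS minus DMSO differences, for genes and list medians, were screened for 1 day standing far from the others (Dixon's test at the 95% level, which flags about 1 in 20 sets by chance). Of 58 sets, 10 genes and the list medians, 4 stood out, all list medians: visceral endoderm and liver genes at day 12 (2.73), skeletal muscle genes at day 20 (1.87), neuron identity regulators at day 6 (0.28) and immediate early genes at day 12 (1.09).

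In 9 lists the median was on one side of 0 on all 4 days of global EBs and on the other in both stages of the neural branch. The difference between branches was not tested for lists, and for single genes the interaction called 0. The values nearest 0 in global EBs were 0.68 for cardiac transcription factors, 0.23 for endothelial genes, 0.70 for mesenchyme and sclerotome regulators, 0.15 for BMP and TGF-beta genes and 0.34 for FGF and insulin-like growth factors. They were -0.033 for neural progenitor genes, 0.059 for oligodendrocyte genes, 0.057 for oestrogen response genes and 0.039 for immediate early genes. In retinoic acid-treated EBs and neural progenitor cultures the medians were -0.48 and -0.25 for cardiac transcription factors, -0.41 and -0.36 for endothelial genes, and -0.41 and -0.74 for mesenchyme regulators.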

How the results depend on the processing

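For BPS against DMSO, 0 genes were called in either direction with RLE factors, a filter of 5 CPM, no term for day, or limma on log2(FPKM + 0.1), with 1172 higher and 1450 lower at an unadjusted p under 0.05 for RLE. DESeq2 called 384 higher and 271 lower, no filter 114 and 52, all 16 EB libraries 1176 and 1014, and limma on log2(FPKM + 1) 1 and 0. Leaving out each day in turn gave 0 to 45 higher and 0 to 10 lower. In the fit to 16 libraries it gave 372 to 1319 higher and 230 to 1048 lower (chosen after seeing the data). Against BPA, the 16 libraries gave 7 and 0, and leaving out a day gave 15 to 231 higher and 0 to 33 lower. Against BPF, DESeq2 gave 7 higher, the 16 libraries 0, and leaving out a day 2 to 43 higher and 0 to 6 lower. Adjustment over both pairs together, also chosen afterwards, gave 9 lower against BPA and 3 lower against BPF. DESeq2 gave 6 and 57 for the earlier against the later days, and 128 and 55 for the branches. A prior count of 5 reduced the genes 2-fold lower to 151 at day 6 and 117 at day 20. The cause of these changes was not tested. No direction reversed among the 10 genes named for DMSO, 10 for BPA and 8 for BPF under the alternatives run. These genes were chosen by smallest p in libraries that the alternatives use again, so their kept directions are no independent check. No paired analysis was possible because each group holds 1 library, apart from the pairing by day in every fit but the one named. With 1 library per treatment and day, a difference of 1 day has no replicate check, and genes near the filter of 1 CPM have the least precise values.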

Other observations

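The visceral endoderm and liver list had a median difference far from 0 at day 12 (2.73). Of 26 tested genes 5 were higher and 1 lower at an unadjusted p under 0.05 (edgeR, background 8.98% and 9.34%), 5 and 1 of 27 were called in the 16 libraries (1 and 0 without day 12, 2 and 0 without day 9), and the list's summed level was 136.3, 227.4, 143.14 and 291.94 FPKM in DMSO and 157.91, 246.13, 658.32 and 292.73 FPKM in BPS. Ttr, the carrier of thyroid hormone and retinol-binding protein, was at 5.97 FPKM in DMSO and 36.91 in BPS at day 12. BPA and BPF had list medians of 0.65 and 2.01 against DMSO on that day.

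Of 28 imprinted genes 5 were higher and 1 lower at an unadjusted p under 0.05, and 5 and 0 were called in the 16 libraries (3 and 0 without day 9 or day 12). Peg3, a paternally expressed zinc finger gene, was at 59.26, 83.44, 34.83 and 60.34 FPKM in DMSO and at 124.4, 197.57, 106.35 and 93.43 FPKM in BPS (1.12 ± 0.16, edgeR adjusted p = 0.0668), without overlap. Pluripotency genes were lower in 3 of 23 and higher in 2, near the shares over all genes, and 1 and 1 were called in the 16 libraries. Nanog was at 59.34, 16.3, 9.29 and 11.67 against 43.32, 11.44, 6.11 and 9.41 FPKM (DMSO first), and the higher genes were Klf5 (0.46 ± 0.13) and Tbx3 (0.91 ± 0.23).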
